A study of Mus musculus with 6 samples.

Results

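The genes described here are 10 that handle norepinephrine or switch off its receptors: the monoamine oxidases Maoa and Maob, the transporters Slc6a2 and Slc29a4, the adrenergic receptors Adra1b and Adra2c, the receptor kinases Grk4 and Grk5, and the beta-arrestins Arrb1 and Arrb2. They were chosen by name, and all 10 were found among the 19937 genes that had a transcript cluster (a group of probes for 1 transcribed region) of their own on the arrays. Each of the 10 had a single cluster. The 6 arrays measured RNA of primary neurospheres, floating colonies that grow from hippocampal precursor cells of adult (8 to 12 weeks old) male C57BL/6J mice in medium with EGF and bFGF. Of these, 3 were grown with 10 µM norepinephrine (N) and 3 with 15 mM potassium chloride (K), and all were collected on day 14. The labels call the colonies small neurospheres. How many animals gave the cells of each replicate is not given in the sources used here. No neurospheres grown without norepinephrine or added potassium chloride were analysed here, so a difference between N and K cannot show which treatment moved a gene.

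Norepinephrine acts on cells through adrenergic receptors, which pass the signal to G proteins. The signal is ended at several points: transporters carry the amine into cells, monoamine oxidase on the outer mitochondrial membrane oxidises it, G protein-coupled receptor kinases phosphorylate the active receptor, and beta-arrestins bind the phosphorylated receptor, uncouple it from the G protein and bring it to clathrin-coated pits. Monoamine oxidase A prefers norepinephrine and serotonin as substrates. Monoamine oxidase B prefers phenylethylamine, and in the brain it is known from astrocytes and serotonergic neurons.

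Values are log2 values from the robust multi-array average (RMA) method, so a log2FC of 1 is a doubling. They compare a gene between arrays, and they do not rank genes by abundance. N and K were compared with limma across all 19937 genes, with p-values adjusted by the Benjamini-Hochberg method over all of them, and a gene passed at an adjusted p under 0.05. Array medians ran from 6.30 to 6.40, and the mean correlation of an array with the others of its group ran from 0.948 to 0.965, lowest for K replicate 3. For K replicates 1 and 2 the mean correlation was higher with N than with their own group. The precursor genes Sox2 and Vim were bright on all arrays, with means of 10.16 and 11.75 on N arrays and 9.90 and 11.31 on K arrays. Of 7 precursor markers, Prom1 was the dimmest, with 6.16 on N arrays and 5.76 on K arrays. Emx2 and Lhx2, of the dorsal forebrain, lay at 7.65 and 8.33 on N arrays and 7.47 and 8.25 on K arrays.

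Of the 10 genes, 0 passed at an adjusted p under 0.05 from limma, where 0.155% of all genes did (0.12% higher and 0.0351% lower in N), and 2 had an unadjusted P under 0.05, Maoa and Slc6a2, where 8.54% of all genes did (in an ordinary linear model without moderation, 0 passed after adjustment and only Maoa had an unadjusted P under 0.05). The same 2 were the genes whose N and K arrays did not overlap, which 13.3% of all genes showed (5.78% with N above K, as Maoa, and 7.55% with N below K, as Slc6a2). The rule of the study's methods for differing genes, a log2FC over 1 in size with an unadjusted P under 0.05, took 0 of the 10 and 0.492% of all genes. The rule for unchanged genes, a log2FC under 0.1 in size with an unadjusted P over 0.1, took Maob, Slc29a4 and Adra2c, and 41.7% of all genes. The log2FC was positive for 4 of the 10, against 43% of all genes, and the median over the 10 was -0.02, beside -0.03 over all genes.

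**Figure D1:**
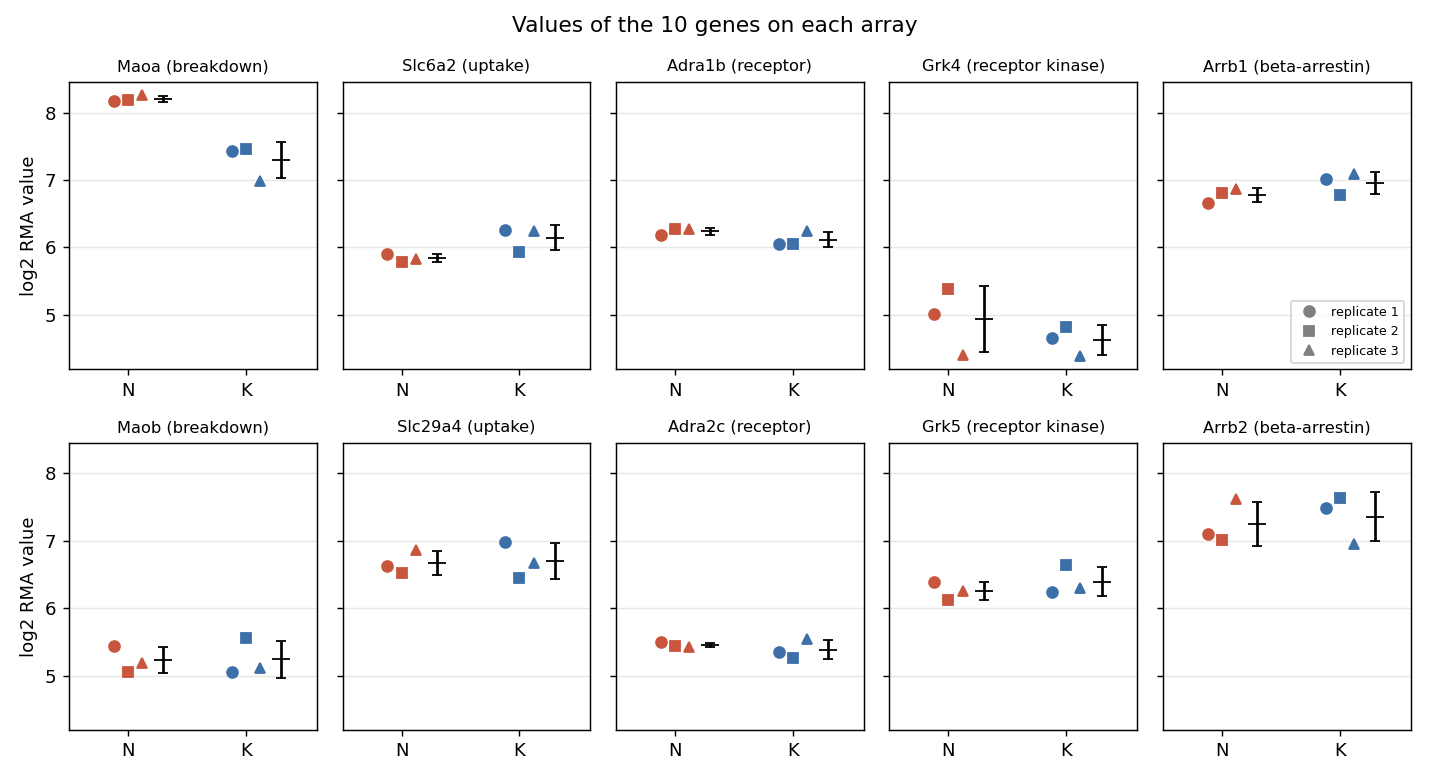
Log2 RMA values (vertical axis) of each of the 10 genes on N arrays (left, n = 3) and K arrays (right, n = 3), with symbols for the replicate number and bars for mean ± SD. The 3 N arrays of Maoa, at 8.17 to 8.26, lie above its K arrays, and the 3 N arrays of Slc6a2, at 5.79 to 5.90, lie below its K arrays, while the other 8 genes overlap.

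Maoa had the largest difference. Its values were 8.17, 8.19 and 8.26 on N replicates 1 to 3, against 7.44, 7.46 and 6.99 on K replicates 1 to 3. The N arrays lay close together, and all of them were above the highest K array. K replicate 3 was the lowest. The means were 8.20 ± 0.05 on N arrays and 7.30 ± 0.27 on K arrays (SD, n = 3 each), a log2FC of 0.91 (standard error 0.15, 95% interval 0.56 to 1.25), or 1.87-fold with an interval of 1.48 to 2.38. It was the 55th gene of 19937 by its P (0.000249), and its adjusted p of 0.0904 from limma did not pass. Without K replicate 3 the log2FC was 0.75, with an adjusted p of 0.134. An exact two-sided permutation test gave p = 0.1 for Maoa, the smallest that 3 arrays against 3 allow.

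Maob, whose gene lies next to Maoa on the X chromosome, was dim, brighter than 75.5% of the chemosensory receptor genes described with the levels, and its signal was not told apart from background. It had 5.44, 5.06 and 5.19 on N arrays and 5.05, 5.56 and 5.12 on K arrays, so the highest and the lowest of the 6 values were both from K. The log2FC was -0.01 (standard error 0.17), with a 95% interval of -0.40 to 0.38, or 0.756-fold to 1.30-fold. On GRCm38 (mm10), Maoa runs from 16619698 to 16687812 and Maob from 16709281 to 16817366 on chromosome X, 21468 bases apart. The log2 value of Maob was taken from that of Maoa within each array. The result was 2.73, 3.13 and 3.07 on N arrays and 2.39, 1.91 and 1.87 on K arrays, 0.92 more on N arrays on average (standard error 0.21). Those groups did not overlap, and the exact two-sided permutation test gave p = 0.1, the smallest the design allows, or 0.25 adjusted over 5 such pairs of related genes. With Maob near background, this difference mostly repeats that of Maoa and does not show how Maob transcripts behaved.

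The oxidases make an aldehyde that other enzymes oxidise or reduce further. Of the list of 7 breakdown genes, 5 were analysed here, and 0 passed over all genes tested in limma. Of the 5, 2 had a positive log2FC with an unadjusted P under 0.05, Maoa and Aldh2 (4.64% of all genes did). The median log2FC of the list was 0.25, but it was 0.08 without K replicate 3 and 0.45 without K replicate 2. Aldh2, a mitochondrial aldehyde dehydrogenase, had 6.91, 6.44 and 6.85 on N arrays against 6.32, 6.21 and 6.12 on K arrays, a log2FC of 0.51 (standard error 0.15, adjusted p = 0.368 from limma). Its groups did not overlap, as in 13.3% of all genes, though N replicate 2 came near K replicate 1. Akr1a1, an aldehyde reductase, had means of 9.81 ± 0.04 on N arrays and 9.56 ± 0.37 on K arrays (SD, n = 3 each), with K replicate 2 the highest of all 6 arrays. Sult1a1, a sulfotransferase for phenolic compounds, ran the other way, from 6.44 to 6.61 on N arrays and from 6.66 to 7.07 on K arrays, with a log2FC of -0.28 (standard error 0.14) and an unadjusted P of 0.0811.

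**Figure D2:**
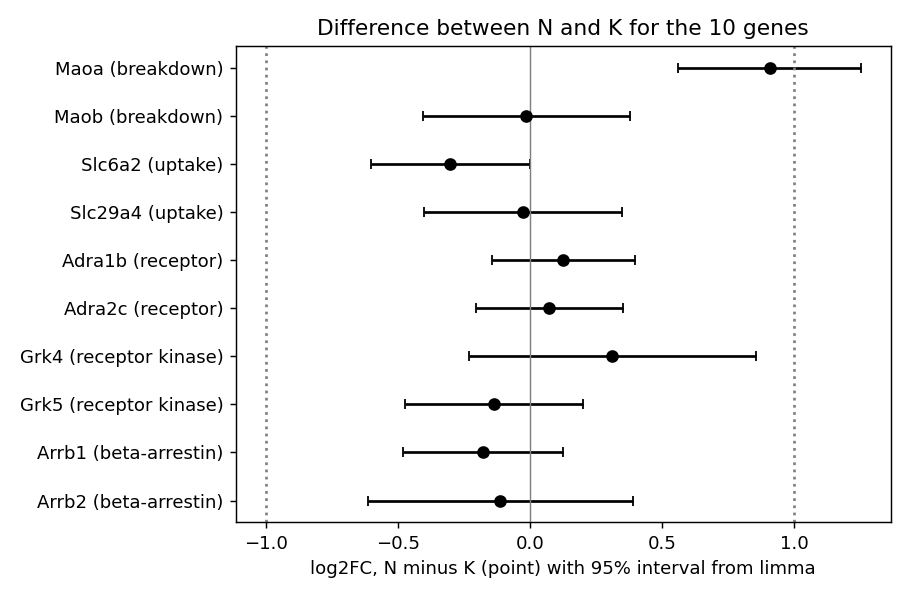
Points give the log2FC (N minus K, horizontal axis) of each of the 10 genes, with 95% intervals from limma, and dotted lines mark a log2FC of 1 in size. Only the intervals of Maoa, 0.56 to 1.25, and Slc6a2, -0.60 to -0.0014, leave out 0.

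Slc6a2 encodes the norepinephrine transporter, the high-affinity uptake protein of noradrenergic neurons. Its values were 5.90, 5.79 and 5.83 on N arrays, against 6.25, 5.93 and 6.25 on K arrays. All N arrays lay below all K arrays, with a gap of only a few hundredths between N replicate 1 and K replicate 2. The log2FC was -0.30 (standard error 0.13, unadjusted P = 0.0492, adjusted p = 0.583 from limma). The P was above 0.05 when any array but K replicate 2 was left out (0.0736 to 0.139), and 0.0101 without K replicate 2. The cluster was dim, below the level that 5% of chemosensory receptor genes exceed, as described with the levels. Slc29a4 encodes the plasma membrane monoamine transporter, a low-affinity carrier of high capacity. It had 6.63, 6.52 and 6.86 on N arrays and 6.98, 6.45 and 6.66 on K arrays, with a log2FC of -0.03 (standard error 0.16, 95% interval -0.40 to 0.35). The K arrays held both its highest and its lowest value. Within arrays, the log2 value of Slc6a2 less that of Slc29a4 averaged -0.83 in N and -0.56 in K, a difference of -0.27 (standard error 0.13, exact two-sided permutation p = 0.1, adjusted over the 5 pairs p = 0.25). Of the 6 uptake genes of the list, 4 were analysed here, with a median log2FC of -0.13 and 0 passing in limma. Only 1 of the 4, Slc29a4, lay above the chemosensory 95th percentile, so this median says little of the transcripts. The other 2 were the organic cation transporter gene Slc22a2, at 5.55 ± 0.15 on N arrays and 5.79 ± 0.32 on K arrays, and the dopamine transporter gene Slc6a3, at 6.21 ± 0.05 on N arrays and 6.17 ± 0.21 on K arrays (SD, n = 3 each).

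Of 9 adrenergic receptor genes 2 were analysed here. Adra1b encodes the alpha1B receptor, which couples to Gq and raises calcium. It had 6.18, 6.27 and 6.27 on N arrays and 6.04, 6.05 and 6.25 on K arrays. The K arrays 1 and 2 were below all N arrays, and K replicate 3 lay among them. The log2FC was 0.13 (standard error 0.12, 95% interval -0.14 to 0.40). Adra2c encodes the alpha2C receptor, which couples to Gi and lowers cAMP. It had 5.49, 5.44 and 5.43 on N arrays and 5.34, 5.27 and 5.54 on K arrays, again with K replicate 3 apart from the other K arrays and here the highest of all. Its log2FC was 0.07 (standard error 0.12, 95% interval -0.21 to 0.35). The 2 receptor genes varied little within a group, with pooled SDs of 0.09 and 0.10 against a median of 0.18 over all genes. The difference between them was 0.05 larger in N (standard error 0.06, exact two-sided permutation p = 0.4, adjusted over the 5 pairs p = 0.5). Both lay below the chemosensory 95th percentile, described with the levels, so neither the spread nor this difference can be read as that of the transcripts.

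Grk4 and Grk5 encode kinases of the same subfamily, which phosphorylate active receptors at the membrane. Grk4 had 5.02, 5.38 and 4.41 on N arrays and 4.66, 4.83 and 4.39 on K arrays. Its N arrays spread more widely than either group of any other of the 10 genes, and N replicate 3 was almost as low as the lowest K array. The log2FC was 0.31 (standard error 0.24, 95% interval -0.23 to 0.85), and without N replicate 3 it was 0.58 with an unadjusted P of 0.0156 and an adjusted p of 0.568 from limma. Grk5 had 6.39, 6.12 and 6.26 on N arrays and 6.23, 6.64 and 6.31 on K arrays, with a log2FC of -0.14 (standard error 0.15, 95% interval -0.47 to 0.20). Its highest value came from K replicate 2 and its lowest from N replicate 2. The test of the difference between the kinases gave p = 0.3 (exact two-sided permutation, 0.5 adjusted over the 5 pairs). Grk4 was the dimmest of the 10, brighter than 61.0% of the chemosensory receptor genes, so neither its sign nor this difference can be read as that of the transcript.

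Arrb1 and Arrb2 encode beta-arrestins 1 and 2, the non-visual arrestins. Arrb1 had 6.66, 6.80 and 6.87 on N arrays and 7.01, 6.77 and 7.09 on K arrays. K replicates 1 and 3 were above all N arrays and K replicate 2 was among them, and the log2FC was -0.18 (standard error 0.13, 95% interval -0.48 to 0.12). Arrb2 had 7.10, 7.02 and 7.62 on N arrays and 7.49, 7.64 and 6.95 on K arrays. Each group held both a low and a high value, and the log2FC was -0.11 (standard error 0.22, 95% interval -0.61 to 0.39). With a pooled SD of 0.34, at the 89.6th percentile of all genes, Arrb2 was after Grk4 (0.38, the 92.5th percentile) the most variable of the 10. Of the list of 7 receptor kinases and beta-arrestins, 6 were analysed here, 0 passed in limma, and the median log2FC was -0.13. Its other members were Grk3, at 7.70 ± 0.16 on N arrays and 7.91 ± 0.07 on K arrays, and Grk6, at 6.49 ± 0.03 on N arrays and 6.41 ± 0.24 on K arrays (SD, n = 3 each).

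For the 8 genes other than Maoa and Slc6a2 the 95% interval of the log2FC held 0, and for none of the 9 genes other than Maoa did it reach a log2FC of 1 in size. These intervals do not show that a gene was unchanged. Within groups, 9 of the 10 genes had a larger SD on K arrays than on N arrays, Grk4 being the exception, and so did 63.3% of all genes. The lowest of the 6 values came from K replicate 3 for 3 of the genes, and the highest for 2.

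**Figure D3:**
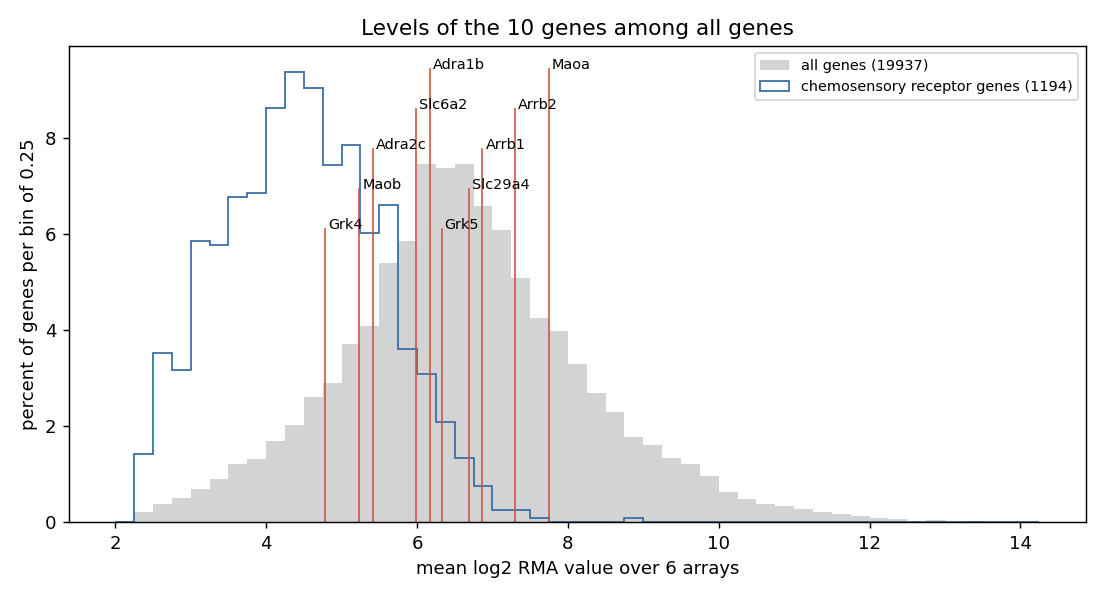
Share of genes (vertical axis, percent per bin) by mean log2 RMA value over the 6 arrays (horizontal axis), for all 19937 genes in grey and for 1194 chemosensory receptor genes as an outline, with a line at each of the 10 genes. Grk4, Maob, Adra2c, Slc6a2 and Adra1b lie below 6.24, the 95th percentile of the chemosensory receptor genes.

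The files used here give no detection call, so the levels were set beside 1194 genes of olfactory and vomeronasal receptors, which cells outside the chemosensory organs hardly use. Their means over the 6 arrays had a median of 4.46 and a 95th percentile of 6.24. Of the 10 genes, 5 were above that value: Maoa, Arrb2, Arrb1, Slc29a4 and Grk5. Maoa was brighter than 99.9% of the chemosensory genes and lay at the 77.9th percentile of all genes. Grk5 was just inside, at the 43.2nd percentile, and Adra1b just outside, at the 38.7th percentile. Slc6a2, Adra2c, Maob and Grk4 were brighter than 92.0%, 79.5%, 75.5% and 61.0% of the chemosensory genes. For the 5 genes below the 95th percentile a signal from the transcript was not told apart from background, and a small log2FC there may understate a difference.

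The sequence before an annotated start of transcription was available for 6 of the 10 genes, in 7 windows of the RefSeq annotation of GRCm38.p6. The Slc29a4 window lies inside the gene, which runs from 142692478 to 142722490, so it precedes a later start. The Grk4 window ends past the first base of the gene, 34660250. It is given for Maoa, which had the largest difference, and for Grk4 and Slc29a4, the other genes with a GC box in their only window. The 250 bases before the start are printed on the strand of the gene, and capitals mark the GC box GGGCGG (known to bind Sp1), the core TGACG of the cAMP response element and the TATA box TATAAA, each searched on both strands.
Maoa, chrX:16619448-16619697, plus strand: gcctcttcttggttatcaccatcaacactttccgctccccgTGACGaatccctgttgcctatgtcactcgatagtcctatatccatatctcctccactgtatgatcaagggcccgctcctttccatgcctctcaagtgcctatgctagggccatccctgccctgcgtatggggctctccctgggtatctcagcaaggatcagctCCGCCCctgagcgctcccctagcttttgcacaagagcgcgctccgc
Grk4, chr5:34660129-34660378, plus strand: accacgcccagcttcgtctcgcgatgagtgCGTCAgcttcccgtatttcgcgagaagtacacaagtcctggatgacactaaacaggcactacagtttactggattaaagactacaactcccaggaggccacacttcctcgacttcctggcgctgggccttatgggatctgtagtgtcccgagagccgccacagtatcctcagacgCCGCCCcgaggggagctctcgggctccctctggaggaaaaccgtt
Slc29a4, chr5:142701851-142702100, plus strand: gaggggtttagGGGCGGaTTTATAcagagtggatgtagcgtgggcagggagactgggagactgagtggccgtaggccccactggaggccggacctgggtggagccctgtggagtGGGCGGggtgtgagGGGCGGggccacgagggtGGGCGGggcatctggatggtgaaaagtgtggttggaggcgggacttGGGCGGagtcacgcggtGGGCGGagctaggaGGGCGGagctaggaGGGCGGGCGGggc

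The Maoa window held 1 GC box, 46 bases before the start, 1 core TGACG and no TATA box. The Grk4 window held the same motifs, with its GC box 45 bases before the start. The Slc29a4 window, inside the gene, held 9 GC boxes, the last 2 of which overlap, and 1 TATA box far from the later start. Of all windows, 1.93% held 5 or more GC boxes. A GC box stood in 32.7% of all 32851 windows of this length, the core TGACG in 17.8%, the TATA box in 12.4% and the full element TGACGTCA, which contains the core, in 1.55%. The full element stood in 0 of the 7 windows. The GC content of the Maoa, Grk4 and Slc29a4 windows was 56.8%, 57.2% and 68.8%, and the median over all windows was 52.4%. These are matches of letters, which do not show that a factor binds there.

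**Figure D4:**
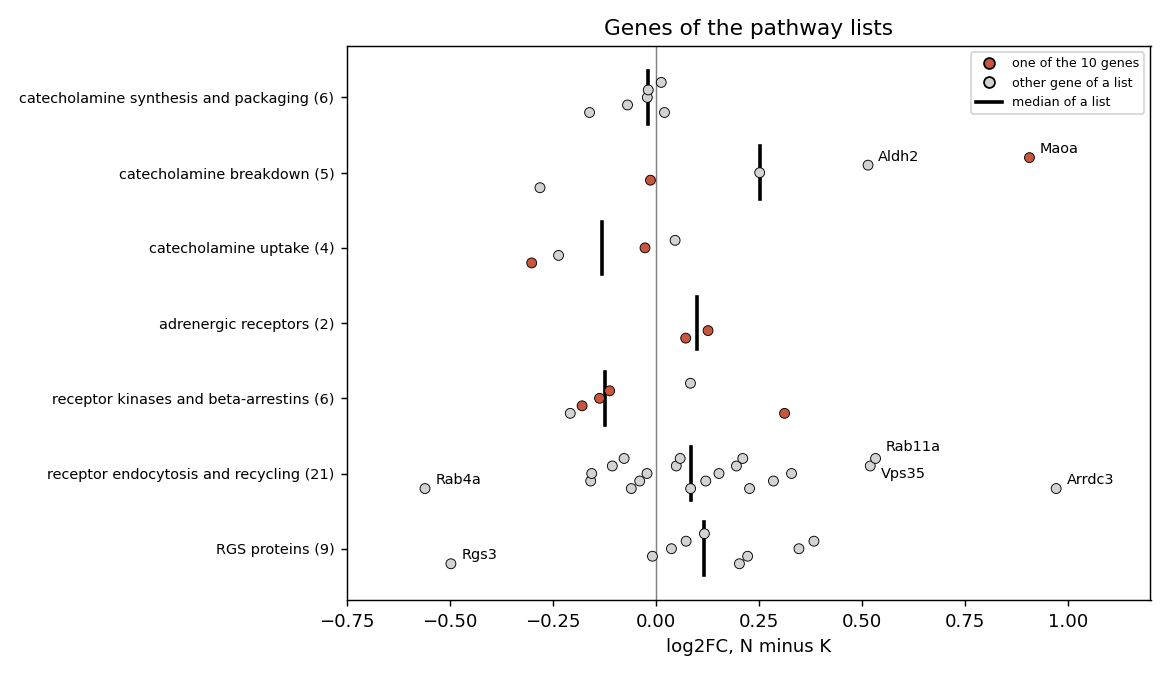
Each row is a pathway list with its number of analysed genes, and points give their log2FC (N minus K, horizontal axis), red for the 10 genes and grey for others, a black bar marking the list's median. Maoa at 0.91 and Arrdc3 at 0.97 lie farthest to the right, and Rab4a at -0.56 farthest to the left.

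The other genes of the pathway were taken from lists of 66 genes in all, of which 53 were analysed here. Of the 43 that are not among the 10, 0 passed at an adjusted p under 0.05 from limma, 4 had a positive and 2 a negative log2FC with an unadjusted P under 0.05, and the median log2FC was 0.05, beside -0.03 over all genes. Over all genes, 4.64% had a positive and 3.89% a negative log2FC at that P. The 6 genes that make and package catecholamines had log2FC from -0.16 to 0.02, but only 1 of them, Th, lay above the chemosensory 95th percentile, so these values say little of the transcripts. They included Pnmt, which makes epinephrine from norepinephrine, with -0.16 (standard error 0.15), Dbh, which makes norepinephrine from dopamine, with -0.07 (standard error 0.12), and the vesicular transporter gene Slc18a2 and the decarboxylase gene Ddc with -0.02 each.

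Among 21 genes of receptor endocytosis and recycling the median log2FC was 0.08, beside -0.03 over all genes, and 13 were positive, against 43% of all genes. In limma 0 of them passed, where 0.155% of all genes did. All N arrays lay above all K arrays for 3 and below them for 1, as for 5.78% and 7.55% of all genes. Arrdc3, an arrestin-related gene known in human cells to take part in the ubiquitination of beta-adrenergic receptors, had 7.85, 7.38 and 8.45 on N arrays against 7.05, 6.96 and 6.76 on K arrays. All N arrays were above all K arrays, though the N arrays spread widely, and the log2FC was 0.97 (standard error 0.24, unadjusted P = 0.00357, adjusted p = 0.269 from limma). Vps35, a subunit of the retromer, which returns receptors from endosomes, had 9.30, 9.25 and 9.22 on N arrays against 8.62, 8.93 and 8.66 on K arrays, with a log2FC of 0.52 (standard error 0.13, adjusted p = 0.267). Rab4a, a GTPase of fast recycling, had 6.20, 6.08 and 6.45 on N arrays against 7.01, 6.68 and 6.72 on K arrays, with a log2FC of -0.56 (standard error 0.15, adjusted p = 0.295). Rab11a, a GTPase of slow recycling, had a log2FC of 0.53 (standard error 0.27), with K replicate 3 far below the other 5 arrays.

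The RGS proteins speed up the return of G proteins to rest. Of 9 analysed, 7 had a positive log2FC, against 43% of all genes, and the median was 0.12, beside -0.03 over all genes. In limma 0 of them passed, where 0.155% of all genes did. Rgs20 had 9.72 ± 0.20 on N arrays and 9.34 ± 0.11 on K arrays (SD, n = 3 each). Rgs3 had 7.84 ± 0.37 on N arrays and 8.34 ± 0.06 on K arrays (SD, n = 3 each). Both were without overlap, as 13.3% of all genes were. Their unadjusted P from limma was 0.0235 and 0.0237, and 8.54% of all genes had one under 0.05. For Rgs3, which had 2 clusters, these are the values of the brighter one. With single-cluster genes only, the median log2FC of the list was 0.16. Rgs4 and Rgs19 had log2FC of 0.35 (standard error 0.18) and 0.22 (standard error 0.13).

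Markers of other cell types were set beside these values, as neurospheres hold precursors and their progeny. In bulk RNA a lower share of a cell type and less of its RNA per cell cannot be told apart. The mean level of 8 astrocyte markers ran from 9.07 to 9.51 on N arrays and from 8.54 to 8.61 on K arrays, so it was higher on every N array, as Maoa was. Of the 8 markers, 7 had all N arrays above all K arrays, as 5.78% of all genes did, S100b being the exception. All 8 were above the 95th percentile of the chemosensory genes. Gfap had a log2FC of 1.66 (standard error 0.21, adjusted p = 0.0358 from limma), Aqp4 1.56 (standard error 0.24) and Slc1a2 0.87 (standard error 0.14), the last 2 not passing. The part of these markers in the Maoa value was not tested. The other 10 marker lists overlapped between the groups. For noradrenergic neurons, 4 markers had a mean level of 5.87 to 5.91 on N arrays and 5.78 to 6.03 on K arrays, and 1 of the 4, Th, was above the 95th percentile of the chemosensory genes, with Dbh, Phox2a and Slc18a2 below it. For serotonergic neurons, 2 markers had a mean level of 4.98 to 5.18 on N arrays and 4.99 to 5.27 on K arrays, both below that percentile. The same held for all 7 endothelial markers, and for 7 of 8 microglial markers.

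**Figure D5:**
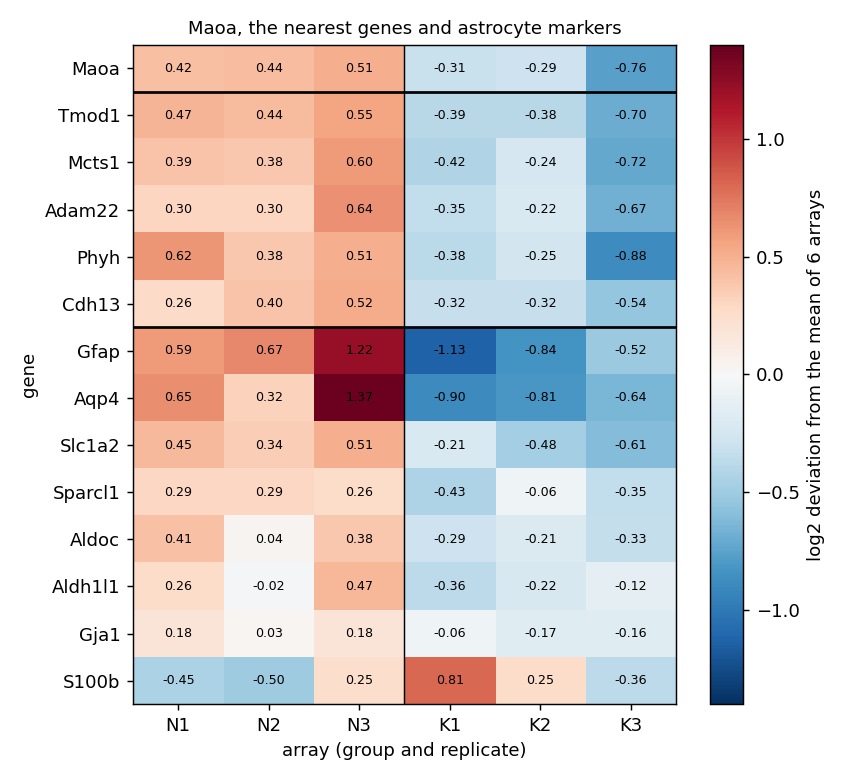
Deviation of each gene (rows) from its own mean over the 6 arrays (columns, N left and K right), in log2 units, for Maoa, the 5 genes nearest to it and 8 astrocyte markers. Maoa and the 5 nearest genes are lowest on K replicate 3, as are Slc1a2 and Aldoc among the astrocyte markers, and the other markers are lowest on another array.

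The genes whose deviations over the 6 arrays were nearest to those of Maoa were Tmod1, which encodes an actin-capping protein, Mcts1, a translation factor gene, Adam22, which encodes a receptor of LGI proteins, Phyh, an enzyme gene of peroxisomal fatty acid oxidation, and Cdh13, which encodes a cadherin without a transmembrane domain. Their root mean square difference from Maoa was 0.06 to 0.11 log2 units over 6 arrays. Tmod1 had 7.94, 7.90 and 8.02 on N arrays and 7.08, 7.08 and 6.77 on K arrays. Its mean was 7.95 ± 0.06 on N arrays and 6.98 ± 0.18 on K arrays (SD, n = 3 each), a log2FC of 0.98 (standard error 0.13), and it passed with an adjusted p of 0.0399 from limma. Mcts1, Adam22, Phyh and Cdh13 had log2FC of 0.92, 0.82, 1.01 and 0.79 and did not pass. These genes were picked for their likeness to Maoa on the same arrays, so their direction adds no support.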

How the data were processed

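RNA of 6 neurosphere samples, 3 N and 3 K, was hybridised to Affymetrix Mouse Gene 1.0 ST arrays, 1 array per biological replicate. The authors summarised the scans in Partek Genomics Suite with RMA and deposited 1 log2 value per transcript cluster, between 1.57 and 14.1. Versions and settings are not given in the sources used here. The values were used as deposited.

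Of 34760 clusters, 21640 carried exactly 1 symbol in the array annotation, 1321 several and 11799 none. For a gene with several clusters the brightest over all 6 arrays was kept. The symbols matched those of the RefSeq annotation of GRCm38.p6 by gene ID for 21553 clusters, with 0 changed. The contrast N minus K was fitted in R 4.3.3 by lmFit and eBayes of limma 3.58.1, with 4 residual and 4.59 prior degrees of freedom, and Benjamini-Hochberg adjustment over 19937 genes. Related genes were compared by exact permutation of the arrays. As the labels say no more of the biological replicates, p-values measure only the spread between these samples. The number of arrays limits the precision. The fit was checked on simulated data. Figures were drawn with matplotlib 3.10.9.

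The genes and lists were chosen with earlier results of these data known. Named genes are the 10, up to 4 further genes of each pathway list and up to 3 of each marker list by smallest P, and the 5 nearest to the gene of the 10 with the smallest P. Other members are named only to complete a count, or to check the labelled cell type. Lists held 66 pathway genes, 13 of them not analysed here, and markers of neural precursors, dorsal forebrain, astrocytes, neurons, noradrenergic and serotonergic neurons, oligodendrocyte lineage, microglia, endothelial cells, mural and meningeal cells, and choroid plexus with ependyma.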

Additional observations from a re-analysis of the deposited data

How the results depend on the processing

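Under 11 other settings and with each array left out in turn, none of the 10 genes passed at an adjusted p under 0.05 in limma or an ordinary linear model. For Maoa the log2FC lay between 0.75 and 0.99 throughout, always with an unadjusted P under 0.05, and the adjusted p between 0.0799 and 0.506. The count of genes with an unadjusted P under 0.05 was 2 and became 1 with the replicate block, without moderation, with only clusters above the median or above the chemosensory 95th percentile (fewer genes tested), and with all transcript clusters. It was 1 to 2 with an array left out. By unadjusted P alone 2 of the 10 were taken. Over all genes 31 passed, against 12 with quantile and 12 with cyclic loess normalization, 3 with arrays centred on the median, 1 without moderation, 0 with all transcript clusters (2174 at an unadjusted P under 0.05), 98 by the rule of the methods and 1702 by unadjusted P alone. With an array left out the count was 0 to 21, at 0 when N replicate 1, N replicate 2 or else K replicate 1 was dropped (1251, 1274 and 1334 at an unadjusted P under 0.05), at 4 when N replicate 3, at 9 when K replicate 3 and at 21 when K replicate 2 was dropped. The cause was not tested.

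The log2FC of Maob changed sign with quantile normalization (0.051), cyclic loess (0.057) and median centring (0.013), and that of Slc29a4 with cyclic loess (0.0011). With an array left out, Maob ran from -0.12 to 0.14, Slc29a4 from -0.15 to 0.11 and Arrb2 from -0.32 to 0.026. The other 7 genes kept their sign. The median over all genes lay between -0.06 and 0.01. With the replicate block 41 genes passed, and Maoa had an adjusted p of 0.104. Arrays with the same number correlated at 0.04 to 0.12 in their deviations, and 4 of 6 correlated best with their own number. These weak correlations cannot settle whether the numbers pair the arrays. The labels state no pairing, so the main fit treated the arrays as unpaired. For 5 of the 10 genes, below the chemosensory 95th percentile, signal was not told apart from background.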

Other observations

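Of the marker lists not described with values above, the mural and meningeal list had 1 of 7 genes with an unadjusted P under 0.05, where 8.54% of all genes did. This was the potassium channel gene Kcnj8, at 6.29 ± 0.21 on N arrays and 5.92 ± 0.09 on K arrays (SD, n = 3 each). Of the 7 genes, 2 lay above the chemosensory 95th percentile, and Kcnj8 lay below it. Of 8 neuronal markers 2 had a positive and 6 a negative log2FC, with a median of -0.09. Only 4 of the 8 lay above the chemosensory 95th percentile. Stmn2, Syt1, Rbfox3 and Dcx, each with a negative log2FC, lay below it, so these signs and the median say little of the transcripts. Those with the smallest P were Snap25, a gene of synaptic vesicle fusion, with a log2FC of 0.81 (standard error 0.21), Tubb3 with 0.47 (standard error 0.16) and Map2 with -0.32 (standard error 0.11). None of the 3 passed in limma, and each had no overlap between N and K arrays, which 13.3% of all genes showed. Of 7 precursor markers 4 had a positive and 3 a negative log2FC, with a median of 0.24. Those with the smallest P were Vim with 0.44 (standard error 0.11), Prom1 with 0.40 (standard error 0.11) and Nes with -0.53 (standard error 0.16), none passing. Of the 7, 6 lay above the chemosensory 95th percentile, and Prom1 lay below it, where signal was not told apart from background.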
